A study of Mus musculus with 6 samples.

Results

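The miR-17-92 cluster is a group of microRNAs (miRNAs) cut from one precursor transcript, and its members were compared here between mouse natural regulatory T cells and conventional CD4+ T cells. The members were taken by their probe IDs: 2org-17-5p and 2org-17-3p for the strands of miR-17, 1org-18 for miR-18, 2org-19a for miR-19a, 1org-20 for miR-20 and 1org-92 for miR-92, which made 6 of the 171 miRNA probes on the array. Total RNA of CD4+CD25+ cells (labelled CD4+25+, the natural regulatory T cells) and of CD4+CD25- cells (labelled CD4+25-, the conventional T cells) was hybridised together on 6 two-colour arrays, in a design of 3 biological replicates, each also run with the dyes exchanged. The CD4+CD25+ RNA carried Cy5 on arrays 1, 3 and 5 and Cy3 on arrays 2, 4 and 6, by the number in the array titles. The labels name no strain, age, treatment or sorting scheme, and do not say whether replicates were separate animals, so p-values here cover only the spread among these samples, which may be technical. No probe on the array reads CD25 or Foxp3, and a ratio gives no level, so the identity of the sorted cells could not be checked here.

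A miRNA hairpin is cut into a duplex, and as a rule 1 strand is loaded into the silencing complex while its partner is degraded. The loaded strand finds messenger RNAs mainly through its seed, bases 2 to 8. In lymphocytes the miR-17-92 transcript is known to be driven by Myc, to rise when T cells are activated and to favour proliferation and survival, in part by lowering the pro-apoptotic protein Bim. Its miR-17 and miR-20 members and its miR-19 members form separate seed families, and miR-92 belongs to yet another.

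The mature sequences below, from RefSeq (GRCm38.p6), show which members could target the same messages and how alike they are; the seed is in capitals and each runs 5′ to 3′.
miR-17-5p: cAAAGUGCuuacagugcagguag
miR-17-3p: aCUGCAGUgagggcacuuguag
miR-18a-5p: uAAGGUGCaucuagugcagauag
miR-19a-3p: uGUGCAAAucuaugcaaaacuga
miR-20a-5p: uAAAGUGCuuauagugcagguag
miR-92a-3p: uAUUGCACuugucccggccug

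All 6 lie on the plus strand within 813 bases of chromosome 14, from chr14:115043684-115043706 (miR-17-5p) through chr14:115043721-115043742 (miR-17-3p), chr14:115043867-115043889 (miR-18a), chr14:115044048-115044070 (miR-19a) and chr14:115044183-115044205 (miR-20a) to chr14:115044476-115044496 (miR-92a). The platform annotation gave a symbol for 3 of the 6 probes (miR-18, miR-19a and miR-20a) and the others were matched by the number in the ID. Outside miR-17 the ID does not say which strand a probe reads, and the strand usually found in cells was shown. The probes' own sequences were not used here. miR-17-5p and miR-20a share a seed and differ at 2 of 23 positions, and miR-18a differs from miR-17-5p at 6 of 23. The table holds the mature miR-92a sequence at 2 loci, the other on the X chromosome, so that probe may read both. The cluster's remaining hairpin, miR-19b-1, between miR-20a and miR-92a, had no probe. Its mature strand is held at 2 loci and differs from miR-19a at 1 of 23 positions, so the miR-19a probe may also read miR-19b.

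The miR-17 hairpin, chr14:115043671-115043754 on the plus strand, is shown because both of its strands had a probe; the capitals mark first the 5p and then the 3p strand, which are 14 bases apart.
miR-17 hairpin: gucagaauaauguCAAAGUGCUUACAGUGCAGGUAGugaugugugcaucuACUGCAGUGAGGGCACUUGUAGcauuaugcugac

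Values are the authors' log ratios, taken as log2, with the sign of arrays 2, 4 and 6 turned so that a value above 0 means more signal from CD4+CD25+ cells. The ratio was read as Cy5 over Cy3, which the channel order makes likely; no source states it, and the opposite reading turns every sign. Over the miRNA probes, turned arrays of opposite dye correlated at -0.251 to 0.369 (median 0.058). Arrays with CD4+CD25+ in Cy5 correlated with each other at 0.521 to 0.622, and those with it in Cy3 at 0.901 to 0.918. Without turning, the arrays of opposite dye correlated at -0.369 to 0.251 (median -0.058). With medians this near 0, the correlations over all probes do not settle whether to turn. Single probes went either way. Once turned, miR-223, the probe with the highest mean, had 4.05 with CD4+CD25+ in Cy5 and 4.18 with it in Cy3. miR-32 had -0.88 and 2.76, opposite in sign. Each ratio below is the mean of 6 arrays ± the SD of 3 replicates, each replicate being the mean of 2 arrays of opposite dye. Because the pairing of arrays is not given, all 6 pairings were fitted and the largest SD and p are printed. The median miRNA probe stood at 0.82, but the turned arrays differed by orientation. Their medians were 1.83, 1.29 and 1.82 on arrays 2, 4 and 6 and -0.085, -0.31 and 0.097 on arrays 1, 3 and 5. Values are therefore also given relative to each array's median ("median-centred"). Both are shown because no source says which zero is right. A further zero, the mean of the U6 and tRNA probes, is given where it changes a call.

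Of the 6 members, only miR-19a was lower in CD4+CD25+ cells on every array. Its SD without centring, 0.477, was larger than those of miR-17-5p (0.354) and miR-20 (0.383) and smaller than those of the other members. miR-20 was as low on average, miR-17-5p and miR-92 lay nearer 0, and miR-17-3p and miR-18 lay above 0. Without centring, 2 of the 6 passed as lower (miR-19a and miR-20), against 8.77% of all miRNA probes, and 2 passed as higher (miR-17-3p and miR-18), against 67.3% of all miRNA probes. With median centring 4 of the 6 passed as lower (miR-17-5p, miR-19a, miR-20 and miR-92), against 22.8% of all probes, and 0 of the 6 passed as higher (limma; 0 also at an unadjusted p under 0.05), against 5.26%. Relative to the U6 and tRNA probes the lower calls ended: 0 of the 6 passed as lower (limma; 0 also at an unadjusted p under 0.05), against 0.585% of all probes, and miR-17-3p and miR-18 passed as higher, against 73.7%. The median ratio of the members was -0.29, or -1.06 median-centred, beside 0.82 and 0.051 for all 171 miRNA probes.

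**Figure D1:**
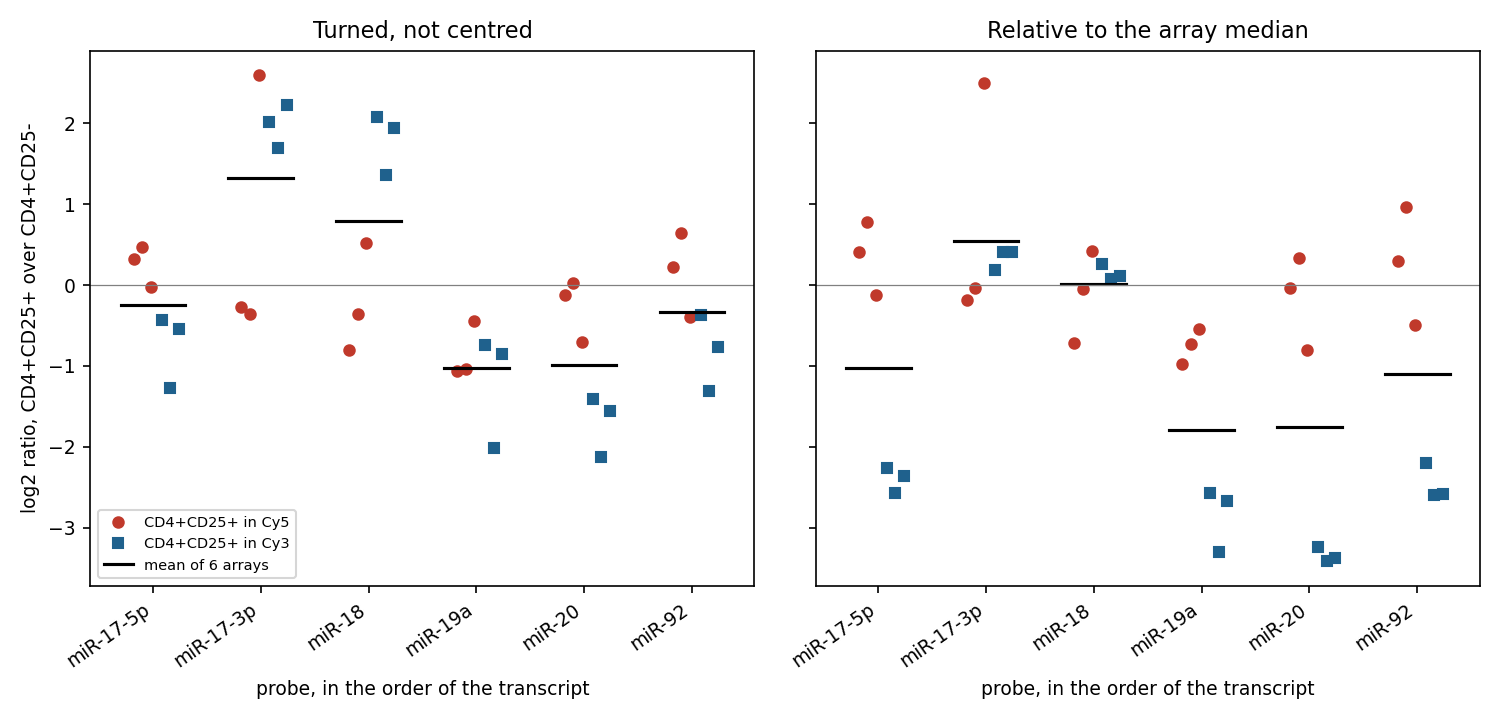
Log2 ratio of each member on each array, with CD4+CD25+ cells on top, without centring (left) and relative to the array median (right). Points are arrays, coloured by the dye of the CD4+CD25+ RNA, and bars are means of 6 arrays. All 6 points of miR-19a lie below 0 in both panels.

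miR-19a is the member that, with miR-19b, has been tied most closely to the growth-promoting action of the cluster. Its log2 ratios were -1.06, -1.04 and -0.45 on arrays 1, 3 and 5 (CD4+CD25+ in Cy5) and -0.74, -2.01 and -0.85 on arrays 2, 4 and 6 (CD4+CD25+ in Cy3). All 6 were below 0 and, without centring, the 2 orientations overlapped. Median-centred they did not, with means of -0.75 (CD4+CD25+ in Cy5) and -2.85 (CD4+CD25+ in Cy3). The mean was -1.02 ± 0.477 (SD, n = 3), or 2.03-fold lower in CD4+CD25+ cells (limma adjusted p = 0.00728), and -1.80 ± 0.303 median-centred (limma adjusted p = 2.95e-05). It was the 1 member still called when each array was scaled to a common median absolute log ratio (-1.11, limma adjusted p = 0.0389). Uncentred values were scaled, so the factor also takes in each array's offset from 0. Relative to the U6 and tRNA probes miR-19a stood at -0.56 and was not called (limma adjusted p = 0.203). With 1 pair of arrays of opposite dye left out, without centring, the call held in 7 of 9 fits; it was lost without arrays 3 and 2 (-1.09, limma adjusted p = 0.0677) and without arrays 5 and 6 (-1.21, limma adjusted p = 0.0841), where 0 and 2 of all 171 probes passed. Median-centred it held in 9 of 9.

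Ranks within an array do not depend on centring or scaling, but they do depend on the turning of arrays 2, 4 and 6. Among the 171 miRNA probes, where rank 1 is the lowest ratio, it held ranks 12, 14 and 26 on arrays 1, 3 and 5 and ranks 12, 9 and 15 on arrays 2, 4 and 6. With the turning, no other member stayed in the lowest 26 places on all 6 arrays. Read without it, miR-19a would hold ranks 160, 163 and 157 on arrays 2, 4 and 6, near the opposite end from its ranks on arrays 1, 3 and 5. The probes most like it over the 6 arrays were 2 for miR-142, a miRNA of blood cells. These were 1org-142-as, with a root mean square difference of 0.180, and 2org-142*, with 0.340. The median over the 165 probes outside the cluster was 2.25. Another miR-142 probe, 1org-142-s, had a mean ratio of -0.27, against -1.02 for miR-19a.

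**Figure D2:**
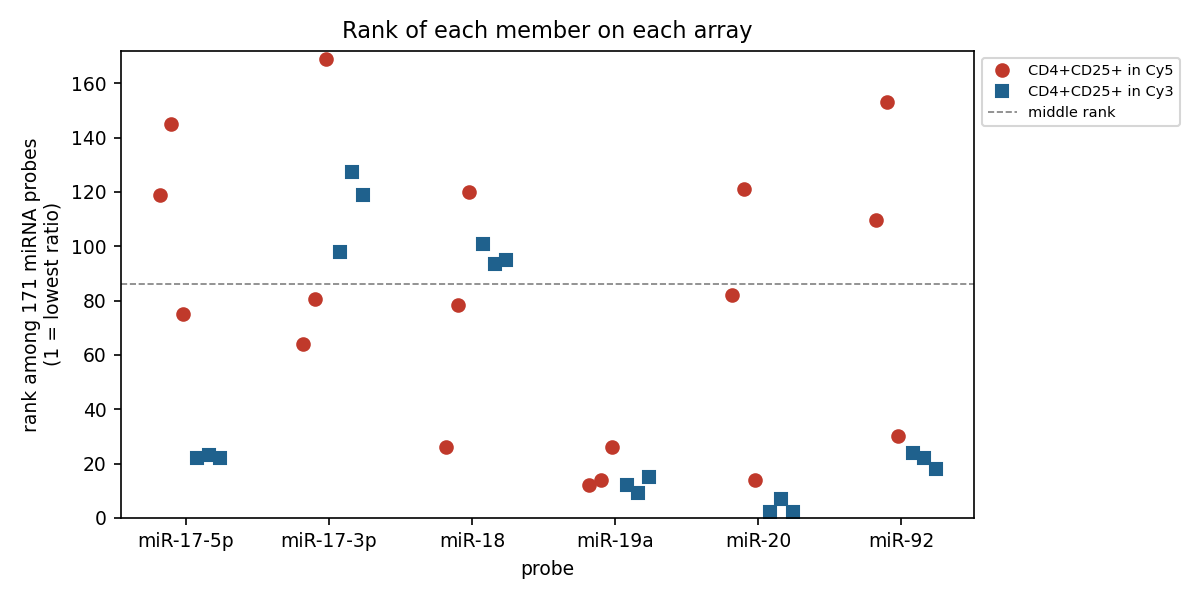
Rank of each member among 171 miRNA probes on each array (vertical axis, 1 is the lowest ratio; dashed line, middle rank), with points for arrays coloured by the dye of the CD4+CD25+ RNA. With arrays 2, 4 and 6 turned, miR-19a ranks between 9 and 26 throughout, while miR-17-5p, miR-20 and miR-92 rank between 2 and 24 with CD4+CD25+ in Cy3 and range far more widely with it in Cy5.

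miR-20, which shares its seed with miR-17-5p, was lower in CD4+CD25+ cells by a similar mean, but not on every array. Its log2 ratios were -0.13, 0.022 and -0.71 on arrays 1, 3 and 5 and -1.41, -2.13 and -1.56 on arrays 2, 4 and 6. They were below 0 on 5 of 6 arrays, and the 2 orientations did not overlap. The mean was -0.98 ± 0.383 (SD, n = 3; limma adjusted p = 0.00606), and -1.76 ± 0.332 median-centred (limma adjusted p = 4.27e-05). miR-20 held ranks 2, 7 and 2 on the arrays with CD4+CD25+ in Cy3 and ranks 82, 121 and 14 on those with it in Cy5. With the arrays scaled to a common median absolute log ratio it had -0.75 and was not called (limma adjusted p = 0.151). Nor was it called relative to the U6 and tRNA probes, at -0.52 (limma adjusted p = 0.241). Its call without centring was lost in the same 2 fits as that of miR-19a (-1.13 without arrays 3 and 2, -0.91 without arrays 5 and 6; limma adjusted p = 0.0594 and 0.0841), and its median-centred call held in 9 of 9. The nearest probes to it were let-7b and let-7c, with root mean square differences of 0.244 and 0.322.

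miR-17-5p, the loaded strand of the cluster's first hairpin and the founder of its largest seed family, gave 0.32, 0.47 and -0.026 on arrays 1, 3 and 5 and -0.44, -1.28 and -0.54 on arrays 2, 4 and 6. The sign thus followed the dye, positive on 2 of 3 arrays in one orientation and negative on 3 of 3 in the other, without overlap. Its ranks were 119, 145 and 75 on the first set of arrays and 22, 23 and 22 on the second. The mean was -0.25 ± 0.354 (SD, n = 3) and did not pass (limma adjusted p = 0.377). Median-centred, it was -1.02 ± 0.303 and passed as lower (limma adjusted p = 0.000827), a call that 1 of the 9 fits with a pair of arrays left out did not make (without arrays 1 and 6, limma adjusted p = 0.0718). Relative to the U6 and tRNA probes it stood at 0.22, above 0, and was not called (limma adjusted p = 0.656).

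miR-92, the last hairpin of the transcript and a regulator of Bim, followed miR-17-5p closely. It gave 0.22, 0.65 and -0.40 on arrays 1, 3 and 5 and -0.37, -1.30 and -0.76 on arrays 2, 4 and 6, with a mean of -0.33 ± 0.499 (SD, n = 3; limma adjusted p = 0.247). Here the orientations overlapped narrowly without centring. Median-centred they did not, with means of 0.26 (CD4+CD25+ in Cy5) and -2.46 (CD4+CD25+ in Cy3). Median-centred, miR-92 stood at -1.10 ± 0.465 and passed as lower (limma adjusted p = 0.00112). It also passed in 7 of the 9 fits with a pair of arrays left out (not without arrays 1 and 4 or 1 and 6, highest limma adjusted p = 0.108). Relative to the U6 and tRNA probes it stood at 0.14, above 0, and was not called (limma adjusted p = 0.794). Of all member pairs, miR-92 and miR-17-5p were the closest, with a root mean square difference of 0.199.

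miR-18, whose seed differs from that of miR-17-5p, gave -0.80, -0.36 and 0.51 on arrays 1, 3 and 5 and 2.08, 1.36 and 1.94 on arrays 2, 4 and 6. It was above 0 on 4 of 6 arrays, and the 2 orientations did not overlap. Its mean of 0.79 ± 0.510 (SD, n = 3) passed as higher (limma adjusted p = 0.0146), but it lay just below the median probe, at rank 80 of 171 by its mean. Median-centred it stood at 0.016 ± 0.330 (limma adjusted p = 0.966). The call without centring held in 4 of the 9 fits with a pair of arrays left out. It was lost without arrays 1 and 2 (0.86), 1 and 6 (0.90), 3 and 2 (0.75), 5 and 2 (0.53) and 5 and 6 (0.57). The probes most like it were miR-202 and miR-183, with root mean square differences of 0.174 and 0.247.

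miR-17-3p, the partner strand of miR-17, had the highest mean of the members and the widest spread. It gave -0.27, -0.35 and 2.60 on arrays 1, 3 and 5 and 2.02, 1.70 and 2.23 on arrays 2, 4 and 6. Array 5 stood far above the other 2 arrays of its orientation, and the orientations overlapped through it. The mean was 1.32 ± 0.952 (SD, n = 3; limma adjusted p = 0.00803), or 0.55 ± 0.792 median-centred (limma adjusted p = 0.157). Leaving out array 5 with array 2 or array 6 brought the ratio to 0.82 or 0.77, and in the second case it was not called (limma adjusted p = 0.0846), nor without arrays 3 and 2 (1.56, limma adjusted p = 0.0728). Median-centred it passed as higher in 2 of 9 such fits, without arrays 3 and 2 or 3 and 6. The nearest probes were miR-124a, a miRNA of the nervous system, and miR-297, with root mean square differences of 0.492 and 0.614.

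Probes for miRNAs known from other tissues (nervous system, muscle, liver, epithelium, embryonic stem cells) served as a comparison. The 28 such probes had means between 0.55 and 1.25 with a median of 0.87, and 26 of them passed as higher without centring and 0 with it. miR-18 lay within their range on 6 of 6 arrays and miR-17-3p on 5 of 6, with array 5 above it. On array 2, where their median was 2.38, miR-17-3p had 2.02 and miR-18 had 2.08. On array 3, where it was -0.70, the same probes had -0.35 and -0.36. miR-19a and miR-20 lay below the range on arrays 2, 4 and 6, and miR-17-5p and miR-92 on arrays 4 and 6. On arrays 1, 3 and 5 all of these 4 members lay inside it. Signal over background is unknown for every probe, and its part in these ratios was not tested.

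**Figure D3:**
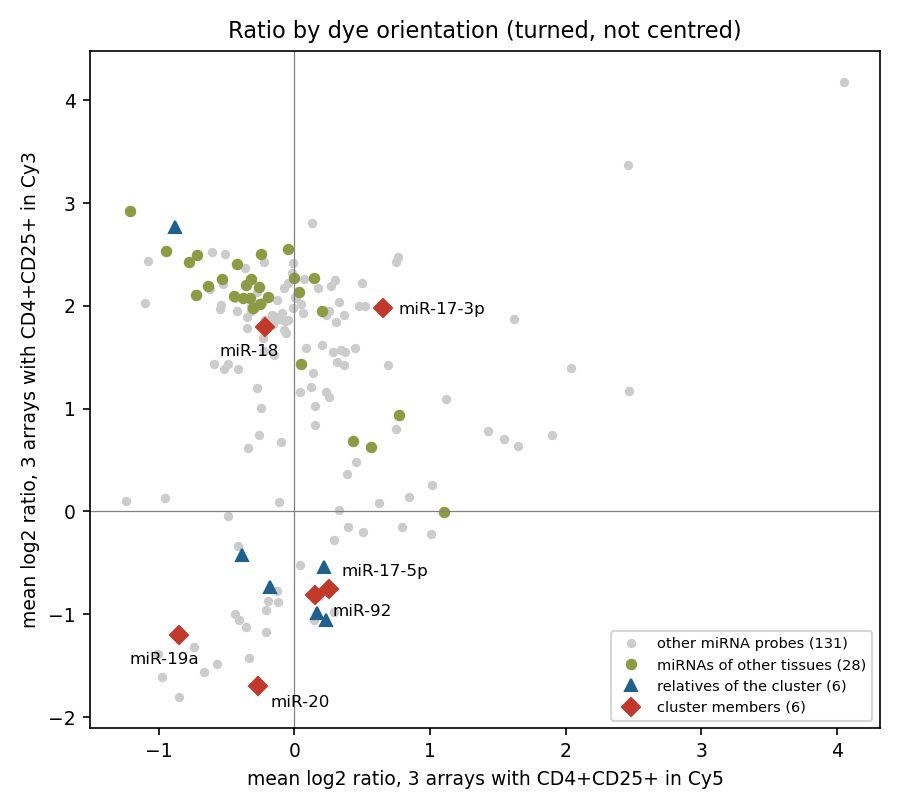
Mean log2 ratio of each of 171 miRNA probes on the 3 arrays with CD4+CD25+ in Cy5 (horizontal) and on the 3 with it in Cy3 (vertical), turned and not centred. miR-17-3p and miR-18 lie among the probes at a vertical value near 2, with most probes for miRNAs of other tissues, while the other 4 members and 5 of 6 relatives lie below 0 on that axis.

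Ratios differed between the dye orientations for most probes on the array, the members among them. In a fit of 6 arrays with a column for the dye, the difference passed for 4 of 6 members (miR-17-5p, miR-17-3p, miR-18 and miR-20), against 70.2% of all miRNA probes, and after median centring for miR-17-5p, miR-19a, miR-20 and miR-92, against 45.6%. miR-19a differed least without centring, by 0.35 between orientations (limma adjusted p = 0.475). With CD4+CD25+ in Cy5 alone, 0 of 6 members passed in either direction (limma; 1 at an unadjusted p under 0.05), where 7.02% of all miRNA probes passed as higher and 4.09% as lower. With CD4+CD25+ in Cy3 alone, all 6 passed: miR-17-3p and miR-18 as higher, against 71.3% of all probes, and the other 4 as lower, against 14.6%.

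Differences between members of the same array are free of any centring, so the strands of miR-17 were compared in that way. miR-17-3p minus miR-17-5p was -0.59, -0.82 and 2.62 on arrays 1, 3 and 5 and 2.46, 2.97 and 2.77 on arrays 2, 4 and 6. The 3p strand had the higher ratio on 4 of 6 arrays and the lower on arrays 1 and 3. The mean difference was 1.57 ± 1.07 (SD, n = 3; two-sided exact sign-flip permutation p = 0.25, the smallest 3 replicates can give, and 0.312 adjusted over the 5 differences from miR-17-5p). Array 5 again stood apart from arrays 1 and 3, and without arrays 5 and 6 the mean difference was 1.00, without arrays 3 and 2 it was 1.94.

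miR-20 was set against miR-17-5p, its neighbour by seed. Their sequences are alike at all but 2 of 23 positions, so each probe may also read the other miRNA. The difference was -0.45, -0.44 and -0.68 on arrays 1, 3 and 5 and -0.97, -0.85 and -1.01 on arrays 2, 4 and 6, so miR-20 had the lower ratio on 6 of 6 arrays and in both orientations. The mean was -0.73 ± 0.102 (SD, n = 3), the smallest spread among the 5 differences (exact sign-flip permutation p = 0.25, adjusted 0.312). miR-19a also had a lower ratio than miR-17-5p on 6 of 6 arrays, by -0.77 ± 0.384 (exact sign-flip permutation p = 0.25, adjusted 0.312). miR-92 differed by -0.078 ± 0.211, with values from -0.37 to 0.18 on single arrays (exact sign-flip permutation p = 0.75). miR-18 was higher by 1.04 ± 0.483, but on arrays 1 and 3 it was the lower of the pair, by -1.12 and -0.83 (exact sign-flip permutation p = 0.25, adjusted 0.312).

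Read along the transcript, the means were -0.25 (miR-17-5p), 1.32 (miR-17-3p), 0.79 (miR-18), -1.02 (miR-19a), -0.98 (miR-20) and -0.33 (miR-92), with no steady course from the first hairpin to the last. They spanned 2.34, and without miR-17-3p and miR-18, a choice made after the values were seen, 0.77. On arrays 2, 4, 5 and 6 those 2 probes had the highest ratios of the 6, and on arrays 1 and 3 they followed miR-19a as the next lowest. Other clusters spanned less over their own measured probes: 0.30 for the 3 probes of miR-106b, miR-93 and miR-25, 0.55 for miR-23b, miR-27b and miR-24, 0.36 for the 8 probes of the miR-290 to miR-295 cluster and 0.20 for miR-183, miR-96 and miR-182. These spans are descriptions and were not tested against each other. A span tends to widen with the number of probes, which was 6 for the members and 3 for each of these clusters except miR-290 to miR-295. The 8 probes of that cluster are also among those for miRNAs of other tissues.

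For 10 miRNAs, 2 probes under the same number were marked as the 2 strands. A partner strand with a number of its own would not have been paired, so rankings here cover these 10 alone. With arrays 2, 4 and 6 turned, the strands of miR-17 differed most of the 10, by 1.57. The sizes for the other 9 miRNAs ran from 0.027 to 0.93 with a median of 0.22. The next largest was miR-142, where the strand marked s exceeded that marked as by 0.93 ± 0.589 (SD, n = 3), on 5 of 6 arrays. With CD4+CD25+ in Cy3 alone the miR-17 strands differed by 2.73, and the largest of the other 9 pairs matched by number was miR-30a at 1.35. With it in Cy5 alone they differed by 0.40, and 5 of the other 9 miRNAs differed by more, up to 0.69 for miR-126. With no array turned, the strands of miR-17 differed by 1.16 and those of miR-30a by 1.01, and the next was let-7d at 0.54.

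**Figure D4:**
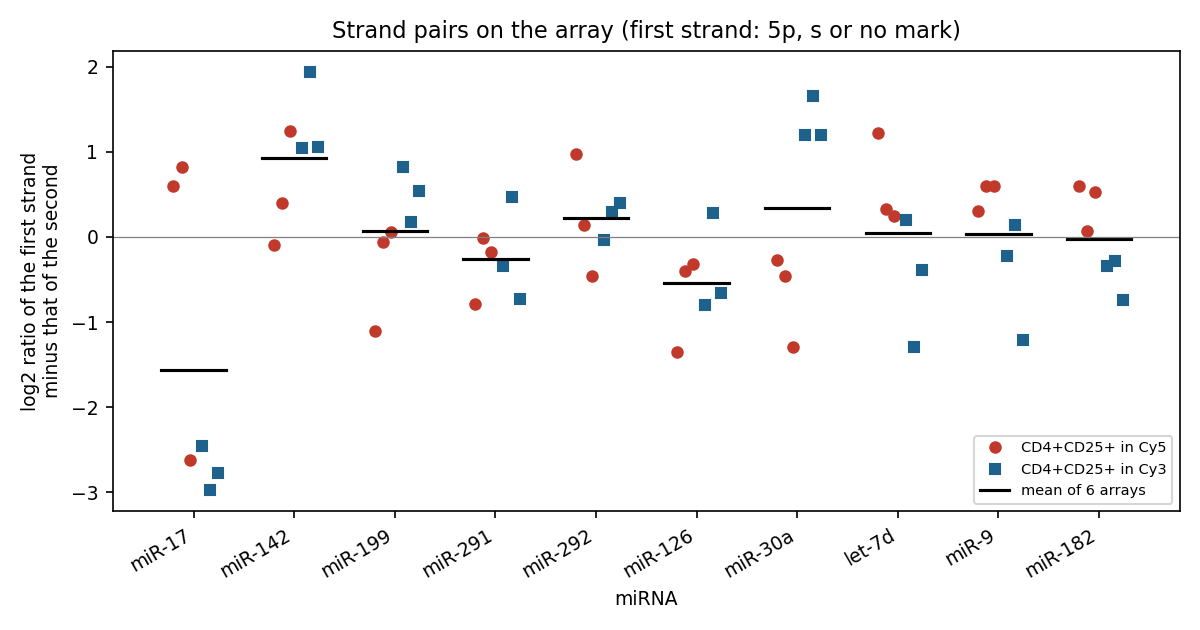
Difference between the log2 ratios of the strands of 10 miRNAs on each array, the 5p, s or unmarked strand minus its partner. Points are arrays coloured by the dye of the CD4+CD25+ RNA and bars are means of 6 arrays; for miR-17, 4 arrays lie between -2.46 and -2.97 and arrays 1 and 3 lie above 0.

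The mammalian genome holds paralogous copies of the cluster, and 5 of the 10 relatives listed by cluster or seed had a probe, together with a probe named miR-106 without a letter. The relatives with the seed of miR-17-5p were miR-106a, miR-106b and miR-93, printed to show how near they stand to the members.
miR-106a-5p: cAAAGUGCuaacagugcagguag
miR-106b-5p: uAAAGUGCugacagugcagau
miR-93-5p: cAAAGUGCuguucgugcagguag
miR-106a differs from miR-17-5p at 1 of 23 positions, so the probes for these 2 miRNAs may read both. miR-106a gave -0.39, -0.19 and -0.58 on arrays 1, 3 and 5 and -0.046, -0.77 and -0.45 on arrays 2, 4 and 6, all below 0. Its mean was -0.40 ± 0.279 (SD, n = 3), with miR-106b at -0.46 ± 0.171 and miR-93 at -0.16 ± 0.280; none of these passed without centring (limma adjusted p = 0.155, 0.111 and 0.568). Among the 5 probes of this seed, miR-20 had the lowest ratio on arrays 2, 4, 5 and 6, and miR-106a on arrays 1 and 3.

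miR-25 and miR-32 carry the seed of miR-92, and only the first had ratios like it.
miR-25-3p: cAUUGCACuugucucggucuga
miR-32-5p: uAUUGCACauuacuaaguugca
miR-25 differs from miR-92a at 3 of the 21 positions compared and stood at -0.41 ± 0.449 (SD, n = 3; limma adjusted p = 0.150). miR-32 differs at 10 of the 21 positions and stood at 0.94 ± 0.493, called higher (limma adjusted p = 0.00945). Its values, -0.84, -1.11 and -0.69 on arrays 1, 3 and 5 and 3.30, 1.87 and 3.12 on arrays 2, 4 and 6, changed sign with the dye. Of the 6 relatives, 1 passed as higher, against 67.3% of all miRNA probes, and 0 as lower, against 8.77%, without centring (limma; 0 lower also at an unadjusted p under 0.05). With median centring 5 passed as lower, against 22.8% of all probes, and 0 as higher, against 5.26% (limma; 0 higher also at an unadjusted p under 0.05), with ratios of the 5 from -0.93 (miR-93) to -1.23 (miR-106b). The probes nearest to miR-17-5p over the 6 arrays were 2 of these relatives, miR-93 (0.205) and miR-106 (0.225), and miR-106 was also among the 2 nearest to miR-92 (0.245), beside let-7i (0.244).

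It is not stated whether the dye-exchanged arrays were turned before deposit. If they were, miR-20 would be higher in CD4+CD25+ cells at 0.71 (limma adjusted p = 0.0190), miR-18 lower at -1.005 (limma adjusted p = 0.0238), and miR-17-5p at 0.50, miR-17-3p at -0.66, miR-19a at 0.18 and miR-92 at 0.48 would not pass (limma adjusted p from 0.0753 to 0.549).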

How the data were processed

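Per the labels, total RNA of CD4+CD25+ and CD4+CD25- cells was hybridised together on 6 two-colour arrays. The authors deposited 1 log ratio per probe and array, taken as log2, for 178 probes with 0 missing values: 171 for miRNAs and 7 for other small RNAs. The log base, the direction and any background correction or normalization went unstated. Median values of the miRNA probes on the deposited arrays ran from -1.83 to 0.097, so the arrays had not been median-centred. Depth has no meaning here, and the number of arrays limits the precision.

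Arrays with CD4+CD25+ in Cy3 were multiplied by -1. limma (version 3.58.1, R 4.3.3; lmFit and eBayes) was fitted across the 171 miRNA probes to 3 replicate values, each the mean of 2 arrays of opposite dye, in all 6 pairings; a call needed a Benjamini-Hochberg adjusted p under 0.05 in all of them. Differences between 2 probes were tested by exact sign flips of 3 replicates. The fit was tested on simulated data with known effects and dye effects that cancelled within a pair. That simulation held no shift of whole arrays such as the one between the orientations here, so it cannot speak to the choice of zero. Alternatives covered centring, scaling, dye orientation, models of the 6 arrays, turning and leaving out pairs of arrays. Named probes were the members, their relatives by cluster or seed, and 4 other clusters. They also covered miRNAs with 2 strand probes under 1 number and the 2 probes nearest to each member. The probe miR-106 without a letter was added to the relatives after the IDs were seen. The members and lists were chosen with earlier results of these data known.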

Additional observations from a re-analysis of the deposited data

Results flagged for a closer look

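For 4 members the ratio differed between the dye orientations in the fit with a column for the dye, as it did for 70.2% of all miRNA probes (45.6% after median centring). Given as the mean with CD4+CD25+ in Cy5 minus the mean with it in Cy3, the difference was 1.01 for miR-17-5p (limma adjusted p = 0.0405), -1.32 for miR-17-3p (limma adjusted p = 0.0384), -2.01 for miR-18 (limma adjusted p = 0.000343) and 1.43 for miR-20 (limma adjusted p = 0.00514). After median centring the differences were 2.75 for miR-17-5p and 3.17 for miR-20, both still past the test, and those of miR-17-3p and miR-18 no longer passed (0.42 and -0.26, limma adjusted p = 0.530 and 0.559). The cause was not tested.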

How the results depend on the processing

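Signs held for miR-17-3p, miR-19a and miR-20 in all alternatives run except the 2 other readings of the table's sign. The size and call of most members moved with the zero chosen. Unless a setting is named below, a result kept its direction and its side of the threshold; this holds for the dye column, the pairs as a replicate block, the fit of all probes and the robust variance model for each member. With median centring the ratios were -1.02 (miR-17-5p), 0.55 (miR-17-3p), 0.016 (miR-18) and -1.10 (miR-92); 0 members were higher and 4 lower, of 9 and 39 probes in all. With centring on the probes for miRNAs of other tissues they were -1.14, 0.43, -0.10 and -1.22, with 0 higher and 4 lower, of 8 and 39. Centred on the tRNAs and U6, the ratios were 0.22 (miR-17-5p), -0.56 (miR-19a), -0.52 (miR-20) and 0.14 (miR-92), 2 members were higher and 0 lower, and of all probes 73.7% were higher and 1 probe lower. With a common median absolute log ratio per array they were 0.0071 (miR-17-5p), 1.32 (miR-17-3p), 0.31 (miR-18) and -0.75 (miR-20), with 0 members higher and 1 lower, of 9 and 4. That scaling followed by median centring gave 0.96 (miR-17-3p), -0.041 (miR-18) and -1.11 (miR-20), with 0 higher and 1 lower, of 9 and 8. It was chosen after seeing the data, like each other combination with centring.

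The arrays with CD4+CD25+ in Cy5 alone gave 0.25 (miR-17-5p), 0.66 (miR-17-3p), -0.22 (miR-18), -0.85 (miR-19a), -0.27 (miR-20) and 0.16 (miR-92), with 0 members called in either direction, of 12 higher and 7 lower. Those with it in Cy3 alone gave -0.75 (miR-17-5p) and -0.81 (miR-92) and 4 members lower, of 25. Median-centred, the first set gave 0.35, 0.76, -0.12, -0.75, -0.17 and 0.26 in the same order, with 0 members called, of 12 and 6. The second gave -2.40 (miR-17-5p), 0.34 (miR-17-3p), 0.15 (miR-18) and -2.46 (miR-92), with 0 members higher and 4 lower, of 39 and 59. With no array turned the ratios were 0.50 (miR-17-5p), -0.66 (miR-17-3p), -1.005 (miR-18), 0.18 (miR-19a), 0.71 (miR-20) and 0.48 (miR-92), with 1 member higher and 1 lower, of 3 and 88. The opposite reading of the ratio gave 0.25, -1.32, -0.79, 1.02, 0.98 and 0.33, and 15 probes higher and 115 lower in all.

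Differences from miR-17-5p reversed with no array turned (-1.16 for miR-17-3p, -1.51 for miR-18, 0.21 for miR-20), with CD4+CD25+ in Cy5 alone (-0.47 for miR-18), and with the opposite reading (-1.57 for miR-17-3p, -1.04 for miR-18, 0.77 for miR-19a, 0.73 for miR-20, 0.078 for miR-92). Median centring moved the dye difference of miR-17-3p to 0.42, of miR-18 to -0.26, of miR-19a to 2.10 and of miR-92 to 2.71. With 1 pair of opposite arrays left out, ratios ran from -0.38 to -0.048 (miR-17-5p), 0.77 to 1.64 (miR-17-3p), 0.53 to 1.04 (miR-18), -1.24 to -0.77 (miR-19a), -1.13 to -0.77 (miR-20) and -0.56 to -0.066 (miR-92). Members called ran from 0 to 2 in each direction, and probes called from 0 to 115 higher and 0 to 14 lower. Without arrays 3 and 2, and without arrays 5 and 6, 0 members were called in either direction, with 0 and 2 probes called in all. The difference of miR-92 from miR-17-5p ran from -0.18 to 0.030 and reversed without arrays 5 and 6. Where not shown by the setting itself, the cause was not tested, and signal over background is unknown.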
